A study of Mus musculus with 4 samples.

Results

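RUNX1 peaks of the fetal ovary were examined at 10 genes of the Kmt2 and Set1 histone methyltransferase complexes, namely Kmt2a, Kmt2b, Kmt2c, Kmt2d, Kmt2e, Setd1a, Setd1b, Men1, Kdm6a and Ash2l. RUNX1 occupancy was mapped by ChIP-seq, the sequencing of DNA pulled down with an antibody to RUNX1, in whole XX ovaries of CD1 mouse embryos at E14.5. By the labels, 80 to 100 ovaries went into a ChIP, while the paper's methods give a higher range. The methods describe 2 independent experiments on pooled ovaries. Input libraries of the same stage served as background. Each ChIP used 20 to 30 μg of chromatin and 10 μl of antibody. The authors merged the 2 RUNX1 libraries and called 1 list of 10494 peaks of 300 bp, so no peak has a value per replicate or an error. The fold of a peak is its enrichment over background as the authors' peak caller computed it, from 4.01 upward, and its p-value is that of the same caller. The genes were chosen with earlier results of these data known, and the peaks were selected by position in this list. A peak belonged to a gene when the transcription start site (TSS) nearest to the peak edge was a start of that gene in the curated RefSeq models of mm10, or when the peak overlapped the gene body. This rule gave 6 of the 10494 peaks, at 5 of the 10 genes. Positions, folds and counts below therefore describe the list and carry no test. Whole ovaries hold several cell types, and a peak does not tell in which of them RUNX1 was bound.

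The methyltransferases of these complexes place methyl groups on lysine 4 of histone H3, a mark of promoters and enhancers in use. KMT2A and KMT2B work with menin, the product of Men1, mostly at promoters, and carry a CXXC domain that binds unmethylated CpG sites. KMT2C and KMT2D act mainly at enhancers together with KDM6A, which removes methyl groups from lysine 27 of the same histone. SETD1A and SETD1B form the Set1 complexes, which place much of the trimethyl mark at active promoters. All of these enzymes need a common core that includes ASH2L, whereas KMT2E is a related SET protein outside these complexes. RUNX1 binds DNA with its Runt domain at a short core, TGTGGT or TGCGGT.

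Of the 10 genes, Kmt2a, Kmt2d, Setd1a, Men1 and Kdm6a had a peak and Kmt2b, Kmt2c, Kmt2e, Setd1b and Ash2l had none by this rule. By the same rule, 40.8% of the 21000 protein-coding genes had a peak, so 5 of 10 was near the background. The strongest peak of the 5 genes had, at the median, a fold of 8.08, and 7.35 with Kmt2a left out, beside 6.71 over the 8570 protein-coding genes with a peak. Men1 had 2 peaks and the other genes 1 each. Among protein-coding genes with a peak, 17.9% had more than 1.

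The regions that carry most of what follows are printed here 5′ to 3′ on the strand of the named gene, from mm10: the strongest peak of the list, at Kmt2a, both member peaks with a RUNX core, at Setd1a and upstream of Men1, and the peak between Kmt2c and a noncoding gene. Capitals mark RUNX cores, or GGGCGG in the Kmt2a peak, which holds no core. A core on the other strand appears as ACCACA or ACCGCA.
Kmt2a, chr9:44881355-44881654, reverse strand: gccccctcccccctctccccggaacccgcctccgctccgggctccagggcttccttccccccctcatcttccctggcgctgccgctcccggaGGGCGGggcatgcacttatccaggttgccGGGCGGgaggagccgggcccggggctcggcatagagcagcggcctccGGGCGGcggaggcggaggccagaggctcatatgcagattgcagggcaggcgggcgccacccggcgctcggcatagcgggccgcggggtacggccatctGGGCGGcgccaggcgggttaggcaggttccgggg
Setd1a, chr7:127777009-127777308, forward strand: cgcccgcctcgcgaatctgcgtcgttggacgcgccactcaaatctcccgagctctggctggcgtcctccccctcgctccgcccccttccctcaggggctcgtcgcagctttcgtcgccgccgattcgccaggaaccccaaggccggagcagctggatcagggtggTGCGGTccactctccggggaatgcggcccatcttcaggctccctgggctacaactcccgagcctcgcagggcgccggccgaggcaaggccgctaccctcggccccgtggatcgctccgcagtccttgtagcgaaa
Men1, chr19:6331791-6332090, forward strand: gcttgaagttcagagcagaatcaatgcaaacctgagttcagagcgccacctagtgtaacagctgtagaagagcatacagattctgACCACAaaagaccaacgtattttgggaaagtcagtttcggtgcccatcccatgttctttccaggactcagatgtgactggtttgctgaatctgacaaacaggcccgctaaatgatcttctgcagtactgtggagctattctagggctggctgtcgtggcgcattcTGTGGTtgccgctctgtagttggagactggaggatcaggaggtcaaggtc
Kmt2c, chr5:25499315-25499614, reverse strand: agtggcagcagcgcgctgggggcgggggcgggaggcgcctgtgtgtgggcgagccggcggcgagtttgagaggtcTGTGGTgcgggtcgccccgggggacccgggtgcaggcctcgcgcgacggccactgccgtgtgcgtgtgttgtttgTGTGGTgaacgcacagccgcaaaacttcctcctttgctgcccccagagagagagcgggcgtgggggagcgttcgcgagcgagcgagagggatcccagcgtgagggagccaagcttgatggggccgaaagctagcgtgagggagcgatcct

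Kmt2a, the gene of the methyltransferase once named MLL, held the strongest RUNX1 peak of the whole list, with a fold of 358.22. The second highest fold of the list was 180.5, so the Kmt2a value was 1.98 times the next, and its p-value was among the 7 that the list gives as 0. A fold is a ratio to background, and the read counts behind it were not examined here. The size of the Kmt2a fold thus cannot be read as an amount of RUNX1 bound. Kmt2a spans 77.9 kb of chromosome 9, from 44803355 to 44881289 on the reverse strand, with 36 exons and 1 curated start. The peak lay wholly upstream of that start, 66 bp from its nearer edge, outside every curated transcript. At 75.7% its GC content was equalled or passed by 4.27% of all peaks, and it held 31 CpG dinucleotides beside a median of 26 over all peaks. It held no RUNX core, but 4 copies of GGGCGG, the GC box that SP and KLF factors bind, all on the strand of the gene and centred at -96, -194, -242 and -270 bp from the start. The absence of the letters from these 300 bp does not tell whether or how RUNX1 itself was held there. Among the 10 peaks of highest fold, a group looked at after the values were seen, 6 held a RUNX core and the Kmt2a peak was one of the other 4. No other peak lay in the body of Kmt2a. The closest peak that went to another gene was 81490 bp from the Kmt2a start, at chromosome 9 from 44799500 to 44799799, near Tmem25 (fold 4.56).

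Kmt2b, the paralog of Kmt2a that is needed for the histone mark in growing oocytes, had no peak in its 19.9 kb on chromosome 7 (30568855 to 30588726, reverse strand). The peak closest to its start was 35203 bp away, over the start of the small heat shock gene Hspb6 (fold 7.67). Within the pair KMT2A and KMT2B, the list thus ran from its highest fold to no peak past the authors' limits. Men1, the gene of their shared subunit menin, had 2 peaks. It spans 5.92 kb of chromosome 19, from 6334979 to 6340894 on the forward strand, with 3 curated starts. The first peak, from 6334854 to 6335153, covered the starts and the 5′ UTR of exon 1 and had a fold of 10.18 (caller's p-value 5.13e-29). The second, from 6331791 to 6332090, lay 2889 bp upstream between genes and had a fold of 12.03 (caller's p-value 1.55e-19). The order of the 2 peaks was thus opposite by fold and by p-value. They also differed in sequence: the peak at the starts had a GC content of 61.3% and no RUNX core, while the upstream peak had 49.3%, the lowest of the 6 member peaks, 7 CpG dinucleotides and 2 cores. Both of these cores were TGTGGT, one on each strand, centred at -62 and 103 bp from the peak midpoint.

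Kmt2d, whose human counterpart is mutated in Kabuki syndrome, had a peak of fold 8.08 at chromosome 15 from 98871949 to 98872248, upstream of its start and 744 bp from it (caller's p-value 3.39e-27). The gene has 55 exons over 39.5 kb (98831669 to 98871205, reverse strand). The peak lay between curated genes, with a GC content of 65.0%, 1 GGGCGG and no RUNX core. A farther peak, 9717 bp upstream of the start, went to Rhebl1 (fold 4.20). Kdm6a, the X-linked demethylase gene that is known to escape X inactivation, had a peak over its start at chromosome X from 18162498 to 18162797, with its midpoint in the 5′ UTR of exon 1 and a fold of 6.61 (caller's p-value 1.72e-24). Its GC content was 65.3%, and it held no RUNX core. Kdm6a runs over 117 kb and 29 exons, and the next closest peak was 590254 bp upstream of its start, near Fundc1. The start of Kdm6a thus held an isolated peak of fold close to the median of the list, 6.41.

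Kmt2c, the longest of the 10 genes at 227 kb and 59 exons, had no peak by the rule, yet a peak of fold 11.66 lay 532 bp upstream of its start (caller's p-value 3.51e-44). It fell to the noncoding gene 4831440E17Rik, whose start is 183 bp from the other edge of the peak. The 2 genes point away from each other, with 1014 bp between their starts, and the peak sits between them. It held 2 TGTGGT cores on the strand of Kmt2c and 2 adjacent copies of GGGCGG. In chromosome coordinates, the cores were centred at -3 and 72 bp from the peak midpoint. Kmt2e also lost peaks to a noncoding neighbour, but in another position. Its start lies 111 bp from the closest start of the divergent gene 5031425E22Rik, and 2 peaks upstream of Kmt2e lay inside this neighbour and went to it. One, from 23433815 to 23434114 on chromosome 5, had its midpoint in exon 1 of the neighbour, 350 bp from the start of Kmt2e and 239 bp from that closest start (fold 16.93), and held no RUNX core. The other, from 23432904 to 23433203, was 1261 bp from the start of Kmt2e and 133 bp from a different start of the neighbour (fold 9.15), and held 1 TGCGGT core. These peaks lie just outside the rule, and all 3 had higher folds than the peaks of Kmt2d, Setd1a and Kdm6a just inside it. The Kmt2c peak lay outside both genes of its pair, whereas both Kmt2e peaks lay within 5031425E22Rik and outside Kmt2e.

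Setd1a had a peak 81 bp upstream of its start, at chromosome 7 from 127777009 to 127777308, with a fold of 6.36 and a caller's p-value of 5.39e-26. It held 34 CpG dinucleotides, the highest number of the 6 member peaks, and 1 TGCGGT core on the strand of the gene, centred 18 bp from the peak midpoint and at -212 bp from the start. A stronger peak, 7334 bp upstream, covered the start of Orai3, a calcium channel gene (fold 18.51), and held 2 TGTGGT cores. Setd1b, the other Set1 enzyme, had no peak in its 26.4 kb on chromosome 5, and the closest peak lay 29865 bp downstream of its start, in coding exon 13 of Hpd (fold 5.32). Ash2l, the core subunit of all these complexes, had none at its 3 curated starts. The closest peak was 54906 bp from them, near Lsm1 (fold 4.63).

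**Figure D1:**
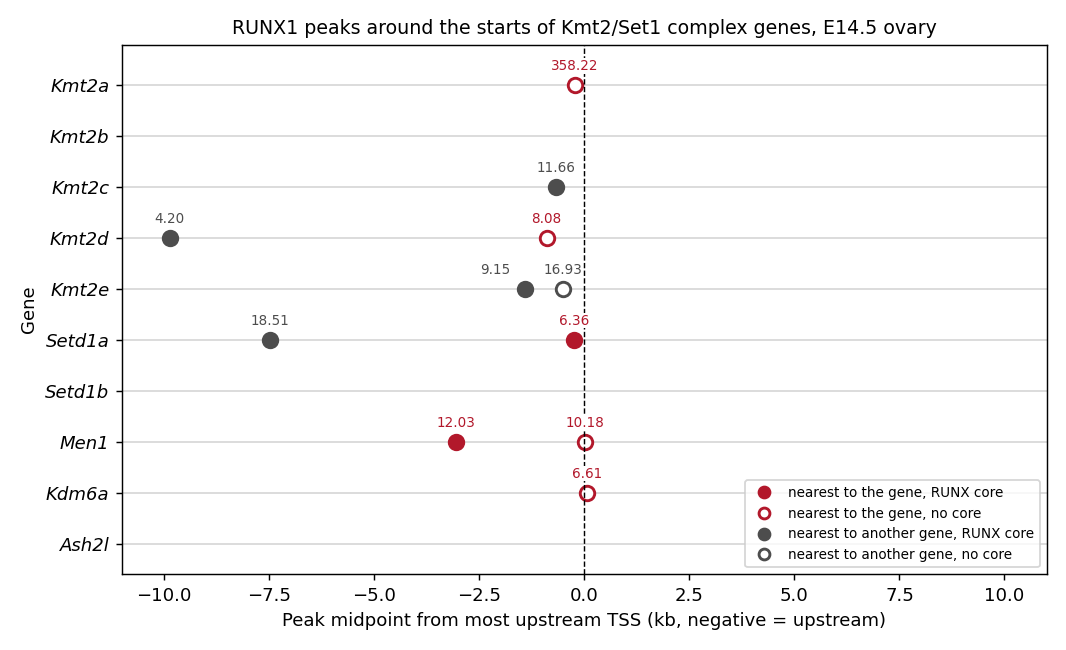
RUNX1 peaks within 10 kb of the starts of the 10 genes (rows), with the distance of the peak midpoint from the most upstream curated TSS in kb on the horizontal axis and the fold printed above each point. Red points are nearest to the gene named on the row and grey points to another gene, and filled points hold a RUNX core. All points but those over the starts of Men1 and Kdm6a lie upstream, and Kmt2b, Setd1b and Ash2l have none.

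Most RUNX1 peaks at these genes lay close to a start. Of the 6 member peaks, 5 had an edge within 1 kb of the start, beside 76.0% of the 10490 peaks on assembled chromosomes. All 6 lay upstream of or over a start. The share of all peaks that do so was not computed, so nothing is read from this. Counting any peak within 1 kb whichever gene it went to, 7 of the 10 genes had one (Kmt2a, Kmt2c, Kmt2d, Kmt2e, Setd1a, Men1 and Kdm6a), beside 37.4% of protein-coding genes. Kmt2c and Kmt2e entered this count through peaks that the rule gave to their noncoding neighbours. The count was also 7 within 10 kb, beside 43.9%. None of the 10 genes had a peak in its body more than 1 kb from its starts, although 8 of them are at least 20 kb long. Such inner peaks were found in 5.20% of protein-coding genes and in 8.48% of the 9493 of at least 20 kb, so a count of 0 in 10 genes was near the background.

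**Figure D2:**
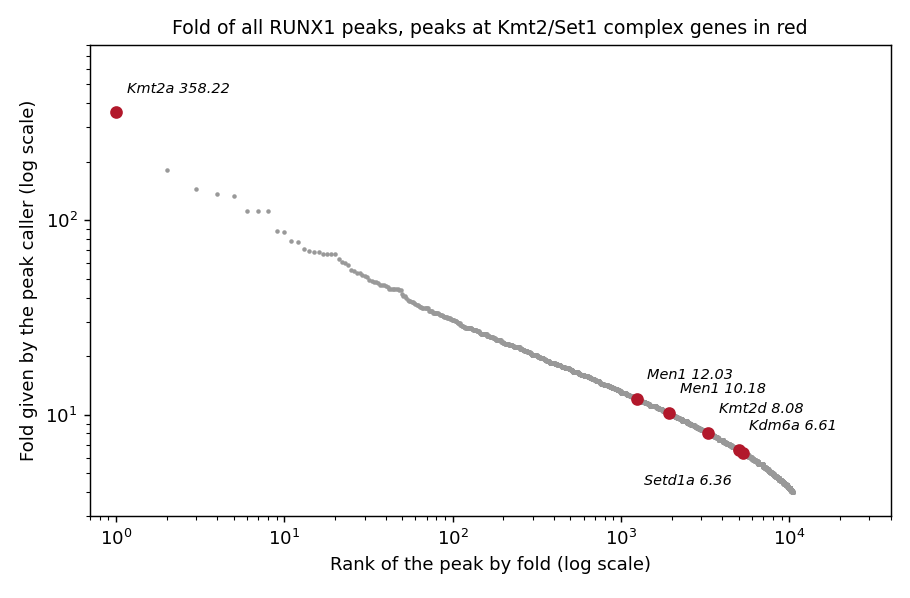
Fold of each of the 10490 RUNX1 peaks on assembled chromosomes against its rank by fold, both on log scales, with the 6 member peaks in red and labelled with gene and fold. The Kmt2a peak stands first at 358.22, and the others lie between 12.03 and 6.36, in the body of the distribution.

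By fold, the member peaks fell into the Kmt2a peak and the rest. Of the 6 member peaks, 4 had a fold of 8 or more, beside 32.2% of all peaks, from which nothing is read because the genes were picked with these values known. Behind Kmt2a at rank 1 came the upstream and the start peak of Men1 at ranks 1226 and 1902, Kmt2d at 3304, Kdm6a at 4953 and Setd1a at 5317 of 10494. The 6 peaks had a median GC content of 65.2% beside 66.3% over the list and a median ratio of observed to expected CpG of 0.735 beside 0.813.

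The RUNX core lay in 2 of the 6 member peaks, those of Setd1a and upstream of Men1, beside 39.9% of all peaks. TGTGGT alone was in 1 of 6 (19.5% of all peaks) and TGCGGT alone in 1 of 6 (23.7%). The 4 member peaks without a core were those at Kmt2a, Kmt2d and Kdm6a and over the starts of Men1. In RefSeq promoters of GRCm38, from 250 bases before to 50 after a start, the core was found in 22.4% of 32851 entries. The table of promoters has 6 of the 10 genes, all but Kmt2b, Kmt2e, Setd1b and Ash2l, and the promoter of Setd1a was the one of the 6 with a core, the same site as in its peak. Of other sites, GGGCGG was in 4 of 6 member peaks (57.0% of all peaks and 35.7% of promoters). GGGAATG or AGGAATG, the site of TEAD factors, was in 2 of 6, at Setd1a and Kdm6a (7.06% and 9.62%), and CCAAT, bound by NFY, in 1, over the starts of Men1 (23.5% and 37.4%). No member peak held the forkhead letters TATTTAC or TGTTTAC (3.24% of all peaks), the kind of site bound by FOXL2. None held AGATAA or TGATAA of GATA factors (8.33%), CAAGGTCA or CAAGGCCA of NR5A receptors (4.42%), CCGGAAGT of ETS factors (4.66%) or the longer CTCF (1.35%) and NRF1 (0.801%) sites. All sites were searched on both strands. With 6 peaks, these counts describe the regions and compare nothing. The paper reports that RUNX1 peaks partly overlap FOXL2 peaks of the same stage. That overlap was not examined here, so the forkhead letters alone do not tell whether FOXL2 was bound at a member peak.

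**Figure D3:**
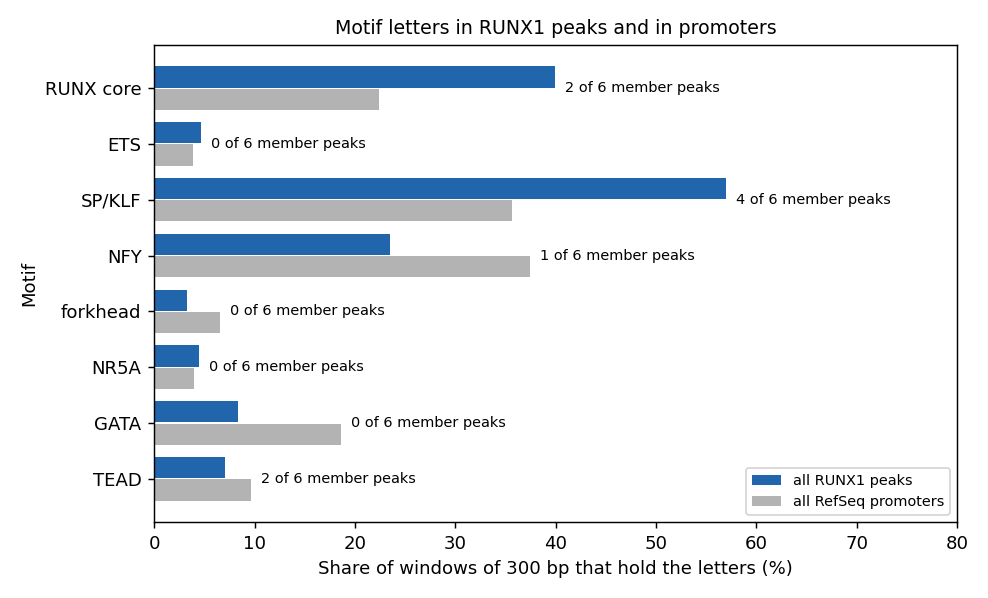
Share in percent of all 10490 RUNX1 peaks (blue) and of 32851 RefSeq promoters (grey), all windows of 300 bp, that hold the letters of each site on either strand, with the number of member peaks that hold them beside the bars. The RUNX core is in 39.9% of peaks, 22.4% of promoters and 2 of 6 member peaks.

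The other subunits of these complexes were looked at as a list. Of 13 such genes, 12 (92.3%) had a peak by the rule, beside the 40.8% of protein-coding genes. All 12 had one within 1 kb of a start, beside 37.4% of protein-coding genes. These shares cover all protein-coding genes and are not matched to the list in GC content or expression. The median of their strongest folds was 7.81, and 6 of their 13 peaks held a RUNX core, beside 39.9% of all peaks. Each of the 3 genes of the common core in this list had a peak with a RUNX core. Dpy30, whose product binds ASH2L, had the strongest, over its start at chromosome 17 from 74316030 to 74316329 (fold 12.65). Rbbp5 had a peak over its start at chromosome 1 from 132477333 to 132477632 (fold 10.00). Wdr5, the gene of the propeller protein that docks the enzymes, had a peak 27 bp upstream at chromosome 2 from 27514821 to 27515120 (fold 9.26). Ash2l, the other gene of this core, is among the members without a peak. The sites in these peaks are shown to set them beside those of Setd1a, Men1 and Kmt2c, each read on the strand of the core, in capitals, with 10 bases on either side in mm10.
Dpy30, chr17:74316084-74316109: tccggttgatTGCGGTttgcagggtc
Dpy30, chr17:74316175-74316200: caggacccggTGCGGTgcagcccagc
Rbbp5, chr1:132477587-132477612: ggttgcagccTGCGGTccctcccgcc
Wdr5, chr2:27514817-27514842: ccccccgcctTGCGGTaggctgggga
Wdr5, chr2:27515067-27515092: aggggccgtcTGTGGTtctcgcttcc
Of these 5 cores, the second of Dpy30 lay closest to its peak midpoint, at 8 bp. The others lay between -141 and 117 bp from theirs, in chromosome coordinates.

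Among subunits that only some complexes carry, 9 of 10 genes had a peak, beside 40.8% of protein-coding genes (median of strongest folds 6.32). Bod1, a paralog of Bod1l, had a fold of 8.79. Hcfc1, the gene of a host cell factor in the Set1 and KMT2A complexes, had a fold of 8.75. Paxip1, the gene of the KMT2C and KMT2D subunit PTIP, had a fold of 8.40, and Wdr82, a Set1 subunit that reads the RNA polymerase II tail, 7.22. The first 3 of these peaks covered a start and the Wdr82 peak lay 152 bp upstream. Ncoa6, the gene of a nuclear receptor coactivator in the KMT2C and KMT2D complexes, was the 1 gene without a peak.

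Further enzymes have been reported to act on the same mark outside these complexes. Of 6 other methyltransferase genes, 3 had a peak, beside 40.8% of protein-coding genes: Setd7 (fold 9.26), Prdm9, which marks sites of meiotic recombination (fold 8.52), and Smyd3 (fold 4.17). None of their 4 peaks held a RUNX core, beside 39.9% of all peaks. Of 6 genes for demethylases of lysine 4, 4 had a peak, beside the same 40.8%. Kdm5a had the strongest, with a fold of 87.01 at rank 10 of the list, at chromosome 6 from 120364131 to 120364430. That peak covered the start of the neighbour Ccdc77 and lay 32 bp from the start of Kdm5a, and it held 1 RUNX core. Kdm5c, X-linked like Kdm6a, had a peak of fold 17.59 over its start, and Kdm1b and Kdm1a had folds of 6.66 and 5.79. Kdm5b and the Y-linked Kdm5d had none. Of the paralogs of Kdm6a, Kdm6b had a peak 2261 bp upstream (fold 7.10) and the Y-linked Uty none. In XX ovaries the Y chromosome is absent, and the list has 0 peaks there. The lists were written with earlier results of these data known, and no difference between them was tested.

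**Figure D4:**
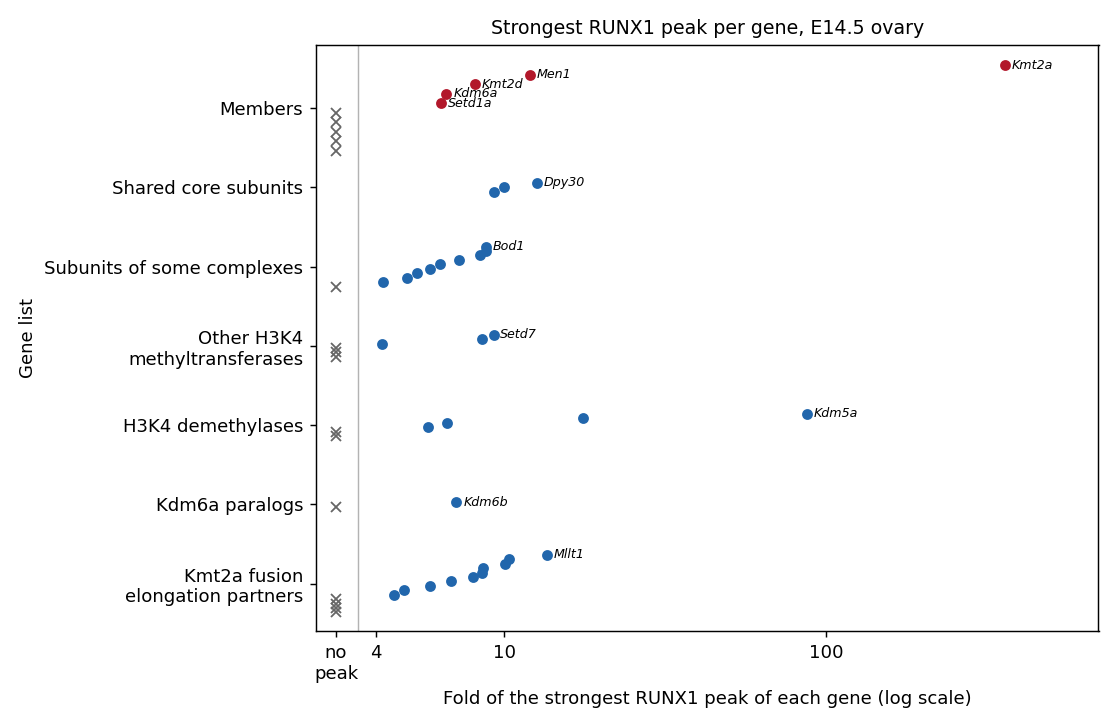
Fold of the strongest RUNX1 peak of each gene on a log scale, by gene list (rows), with genes without a peak as crosses at the left and the strongest gene of each list named, or each member with a peak. Kmt2a at 358.22 and Kdm5a at 87.01 stand apart. The 3 shared core subunits outside the members have a peak each. Of the 10 members, 5 have none, the core subunit Ash2l among them.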

How the data were processed

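RUNX1 ChIP-seq and input libraries were made from pooled E14.5 ovaries, 2 of each. By the paper's methods, the authors kept single-end reads of sufficient base quality, mapped them to mm10 at unique positions (Bowtie 1.2), removed duplicates (Picard 1.110), merged the replicates and called peaks with HOMER 4.9, reset to 300 bp and filtered on enrichment over input and over local signal, and the submitters' notes also name bedtools 2.24.0. The deposited list has no header and gives a position and 2 values per peak, with replicates pooled. They were read as a fold (a ratio to background) and a p-value from the headings of the study's own peak table. Read counts per peak and coverage tracks were not used here, so depth per peak is unknown, and uniquely mapped reads miss repeated sequence. The 4 peaks outside assembled chromosomes were left out of gene and sequence steps. Gene models were 45756 curated RefSeq transcripts of 26180 genes on GRCm38, the assembly also called mm10. Distances run from the peak edge, ties were kept, and sequence was read with pysam 0.24.0 in Python 3.11.15. Assignment and motif search were checked on planted peaks and sites. Genes named are all members with their peaks, up to 4 genes of each other list by highest fold, neighbours whose starts tie with or lie within 1 kb of such peaks, and the closest peak given to another gene. Members and lists were chosen with earlier results of these data known. Alternatives were stricter peaks, other distance, transcript and assignment rules, and other forms of the RUNX core.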

Additional observations from a re-analysis of the deposited data

How the results depend on the processing

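Of 47 alternatives over 6 results, 31 left a count within 1.5 times its value and the median of folds the same. With peaks of fold at least 8 only, 3 members had a peak (Kmt2a, Kmt2d and Men1), the median of strongest folds was 12.0, 3 peaks lay within 1 kb, 1 held a RUNX core and 6 of the other 13 complex genes had a peak. With p-values under 1e-20 only, 7 of those 13 did and 1 member peak held a core. With predicted transcripts included, Kmt2e gained both of its upstream peaks (median 10.1). With protein-coding starts only, Kmt2c and Kmt2e gained theirs, for 7 members with a peak, a median of 11.7 and 4 peaks with a core. Counting any member start within 10 kb gave 11 peaks, a median of 12.0 and 6 peaks with a core. Cores were in 1 member peak for TGTGGT alone, 1 for TGCGGT alone and 1 for the central 100 bp. For stricter peaks and other transcripts, the shares of all protein-coding genes are not given. The counts of genes under those settings thus have no background beside them and cannot be set against the 40.8% of the main rule.

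No paired analysis was possible because the replicates were merged before peaks were called. No replicate was left out either, since the list has no value per replicate. A gene without a peak is one without binding past the authors' limits at this depth.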

Other observations

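Many leukaemia fusions of KMT2A join it to proteins of the elongation machinery. Genes of fusion partners, and genes related to them, were looked at as a further list. Of the 14 genes of this list, 10 had a peak by the same rule, beside 40.8% of protein-coding genes. Within 1 kb of a start, 9 had one, beside 37.4% of protein-coding genes. Mllt1, the gene of ENL, had the strongest, 116 bp upstream of its start (fold 13.58). Aff3 followed with an inner peak 128986 bp from its start (fold 10.31), then Ell2, an elongation factor gene, with a peak 35 bp from its start (fold 10.05), and Aff4, the gene of the scaffold of the super elongation complex, with a peak over its start (fold 8.56). Mllt10, chosen after its values were seen, had 5 peaks by the rule. Dot1l, the gene of another histone H3 methyltransferase, had none, and neither had Mllt6, Mllt11 or Ell3. RUNX cores lay in 4 of the 17 peaks at these genes, beside 39.9% of all peaks. The list was written with earlier results of these data known, and its counts were not tested.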
